A study of Arabidopsis thaliana with 16 samples.

Results

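A group of 163 genes was active in seeds of diploid crosses and strongly reduced in seeds fathered by *osd1* pollen, whether or not that pollen also carried *phe1* and *phe2* mutations. The group was defined by its RNA values: at least 2 RPKM (reads per kb of transcript per M mapped reads, where M is 1000000) in both wild-type (wt) libraries and, in each of the 4 triploid libraries, at most 12.5% of the mean of the wt libraries. Of 27206 genes in the table, 15691 reached 2 RPKM in both wt libraries and could be chosen, and 1.04% of these 15691 met the ceiling in all 4 triploid libraries. The values that chose the genes are therefore described without a test.

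Seeds were collected 6 days after pollination (DAP) from 3 crosses, with 2 libraries per cross. The mother was in every cross the male-sterile *pistillata* (*pi-1*) mutant of the L*er* accession, so the maternal tissues, seed coat included, had the same genotype throughout. The pollen donors were of the Col accession and were *phe1 phe2 osd1*, *osd1* or wt. Mutants in *osd1* skip the second meiotic division and give diploid pollen at high frequency, so both *osd1* crosses are paternal excess crosses with triploid seeds, and the share of triploid seeds in a library was not measured here. In the *phe1 phe2 osd1* cross the mutations came from the father only: *phe1* carries a premature stop made by CRISPR/Cas9 and *phe2* a T-DNA insertion, and maternal *PHE1* and *PHE2* were intact. A library was made from the pooled seeds of whole siliques, in which embryo, endosperm and seed coat are mixed, and in such bulk samples fewer cells of a type and less RNA per cell cannot be told apart. PHE1 binding was mapped by ChIP-seq of *PHE1::PHE1–GFP* siliques at 2 DAP in 2 replicates, of which only peak positions were used.

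A seed of *Arabidopsis* stores protein and oil mainly in the embryo, while the endosperm nourishes the embryo and cellularizes before the embryo fills. The filling phase is switched on by a network that includes the B3 factors FUS3, LEC2 and ABI3, the CCAAT-binding proteins LEC1 and NF-YB6, and bZIP proteins such as DPBF2 (also known as bZIP67). B3 factors of this network bind the RY element, CATGCA. Endosperm of paternal excess seeds is known for late or failed cellularization and for high expression of AGAMOUS-LIKE genes of the type I MADS-box family, to which *PHE1* belongs, and the embryos of such seeds commonly arrest.

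The libraries held an estimated 16.2 to 18.1 M reads each, judged from the spacing of low RPKM values, and replicates correlated across tested genes at 0.974 in *phe1 phe2 osd1*, 0.961 in *osd1* and 0.989 in wt. *PHE1* itself was at 49.0 and 49.1 RPKM in *phe1 phe2 osd1*, at 200.4 and 169 RPKM in *osd1* and at 2.92 and 3.10 RPKM in wt seeds. The first *osd1* library stood apart in mucilage genes of the seed coat, which is of maternal genotype. It was strictly the lowest of all 6 for 19 of 25 mucilage genes, against 18.7% of the 20051 genes tested. This did not hold for the seed coat flavonoid genes, where it was lowest for 2 of 17. Nor was it particular to the seed coat: ties included, it was lowest for 11 of 12 storage and oil body genes and 8 of 12 maturation regulators. Of these lists, 8 and 2 genes were members, chosen to be low in the triploid libraries. The mucilage gene AT2G47670 was at 80.8 and 205 RPKM in *phe1 phe2 osd1*, 0.697 and 230.5 RPKM in *osd1* and 467 and 486 RPKM in wt seeds. AT3G50990 was at 103 and 202 RPKM in *phe1 phe2 osd1*, 2.93 and 257 RPKM in *osd1* and 206 and 337 RPKM in wt seeds. Leaving this library out is covered below for the member count. Between the triploid crosses it is covered for the median difference, the order of libraries and the adjusted calls. Other values include this library, and the part of this difference in the members' values was not tested. The *PHE1* level was in the order of the labels, and *PHE1* transcript was still present in the *phe1 phe2 osd1* cross.

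Together the 163 genes made up 0.177% and 0.255% of all summed RPKM in *phe1 phe2 osd1*, 0.0519% and 0.153% in *osd1*, and 3.17% and 2.81% in wt seeds. Their wt means ran between 2.15 and 7470 RPKM with a median of 21.9 RPKM. In wt seeds, 32 genes were at 100 RPKM or more and 110 at 10 RPKM or more, so the group is not one of barely detected genes. All 163 are annotated as protein-coding. They lie on all 5 chromosomes, with 36 on chromosome 1, 26 on chromosome 2, 39 on chromosome 3, 27 on chromosome 4 and 35 on chromosome 5. Their median exon length was 1462 bp, against 1786 bp for all genes with at least 2 RPKM in wt, and 28.2% had a single exon, against 13.4%.

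The element bound by the B3 factors was present just upstream of many of these genes. Within 200 bp upstream of the annotated start, CATGCA on either strand was found in 39 of 163 members (23.9%), in 5.37% of the 15622 annotated genes with at least 2 RPKM in both wt libraries, and in 6.69% of all 27444 protein-coding genes. At least 2 matches, counted with overlaps on both strands, were found in 17 members (10.4%), against 0.864% of the genes with at least 2 RPKM in wt. The promoters of the genes below show where the element lies in genes that store protein or oil, in their regulators, in the most abundant member and in *PEI1*, a zinc finger gene of the embryo. Each run is the 200 bp before the annotated start, 5′ to 3′ on the strand of the gene, from TAIR10.1, whose nuclear chromosomes are those of TAIR10, and CATGCA or its reverse complement TGCATG is in capitals. None of these 200-bp windows overlaps another annotated gene.
SESA3, chr4:13611596-13611795, plus strand: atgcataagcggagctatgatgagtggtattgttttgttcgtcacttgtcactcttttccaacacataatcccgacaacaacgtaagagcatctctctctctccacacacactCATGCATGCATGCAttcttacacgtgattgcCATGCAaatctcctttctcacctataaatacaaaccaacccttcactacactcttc
SESA4, chr4:13613396-13613595, plus strand: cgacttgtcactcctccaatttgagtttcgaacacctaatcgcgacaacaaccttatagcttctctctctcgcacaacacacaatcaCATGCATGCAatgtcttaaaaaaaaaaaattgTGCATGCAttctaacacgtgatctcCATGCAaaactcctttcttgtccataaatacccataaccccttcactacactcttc
SESA2, chr4:13609141-13609340, plus strand: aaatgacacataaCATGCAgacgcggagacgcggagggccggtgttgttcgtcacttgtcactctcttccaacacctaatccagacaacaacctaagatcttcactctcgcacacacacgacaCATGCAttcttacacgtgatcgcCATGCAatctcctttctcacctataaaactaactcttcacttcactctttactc
SESA1, chr4:13607129-13607328, plus strand: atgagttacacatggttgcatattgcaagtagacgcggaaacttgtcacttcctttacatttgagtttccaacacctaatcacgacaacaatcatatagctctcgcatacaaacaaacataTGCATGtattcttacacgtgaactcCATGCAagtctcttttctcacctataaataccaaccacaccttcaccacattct
CRA1, chr5:17758337-17758536, minus strand: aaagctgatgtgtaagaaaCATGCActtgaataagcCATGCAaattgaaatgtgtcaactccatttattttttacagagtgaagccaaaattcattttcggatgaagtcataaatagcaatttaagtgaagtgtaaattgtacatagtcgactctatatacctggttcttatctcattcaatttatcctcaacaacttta
OLEO3, chr5:20819868-20820067, plus strand: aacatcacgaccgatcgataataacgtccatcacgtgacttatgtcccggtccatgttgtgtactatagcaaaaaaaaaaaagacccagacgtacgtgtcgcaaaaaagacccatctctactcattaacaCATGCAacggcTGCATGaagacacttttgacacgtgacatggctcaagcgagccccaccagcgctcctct
KCS18, chr4:16494005-16494204, plus strand: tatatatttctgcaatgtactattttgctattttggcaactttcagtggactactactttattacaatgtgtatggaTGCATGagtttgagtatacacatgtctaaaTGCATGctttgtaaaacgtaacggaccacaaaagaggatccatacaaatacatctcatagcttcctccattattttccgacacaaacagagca
DPBF2, chr3:16081907-16082106, minus strand: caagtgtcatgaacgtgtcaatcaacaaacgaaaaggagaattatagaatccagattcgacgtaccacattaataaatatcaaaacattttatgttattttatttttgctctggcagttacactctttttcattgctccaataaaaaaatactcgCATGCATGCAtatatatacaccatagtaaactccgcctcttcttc
FUS3, chr3:9856213-9856412, minus strand: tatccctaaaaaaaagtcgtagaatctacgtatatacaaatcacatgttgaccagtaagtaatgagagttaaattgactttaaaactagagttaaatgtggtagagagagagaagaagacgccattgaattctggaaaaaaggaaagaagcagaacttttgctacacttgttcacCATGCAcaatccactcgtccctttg
PEI1, chr5:2372419-2372618, plus strand: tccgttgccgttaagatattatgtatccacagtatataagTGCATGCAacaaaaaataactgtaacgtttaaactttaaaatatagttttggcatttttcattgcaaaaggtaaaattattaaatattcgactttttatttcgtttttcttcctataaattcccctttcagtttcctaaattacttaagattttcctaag
AT5G38170, chr5:15227438-15227637, plus strand: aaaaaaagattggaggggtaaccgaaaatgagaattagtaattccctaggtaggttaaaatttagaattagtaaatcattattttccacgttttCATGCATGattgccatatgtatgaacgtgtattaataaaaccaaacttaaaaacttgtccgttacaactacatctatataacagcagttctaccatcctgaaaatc

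In *SESA3* and *SESA4* the element was found 6 times each, with several of the matches overlapping, and in *DPBF2* 3 matches overlap in a single stretch. The longer palindrome CATGCATG, which contains both CATGCA and TGCATG, was present in 9 members (5.52%), 0.416% of the genes with at least 2 RPKM in wt and 0.605% of all protein-coding genes. The 4 *SESA* promoters are those of tandem copies and are not independent of one another. Outside the storage and oil body genes, 32 of 155 members (20.6%) had CATGCA. Of the 32 members at 100 RPKM or more in wt, 14 (43.8%) had it, and of the 131 below 100 RPKM, 25 (19.1%). These shares are descriptions, and a match says nothing of binding.

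Other elements described in seed promoters were near their background in the same 200 bp. The G-box, CACGTG, matched in 9.20% of members, 6.80% of genes with at least 2 RPKM in wt and 5.64% of all protein-coding genes. The AACA element, AACAAAC, matched in 11.0% of members, 8.88% of genes with at least 2 RPKM in wt and 9.18% of all. The prolamin box, TGTAAAG, matched in 3.68%, 3.71% and 3.57%. The exact CArG-box, CCWWWWWWGG with W for A or T, is the usual site of MADS-box proteins and matched in 2.45%, 2.41% and 2.12%. This form is narrower than the motifs the study found in PHE1 binding sites, which were not searched. All were searched on both strands, and none of these elements contains another, apart from the palindrome that contains the RY element.

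**Figure D1:**
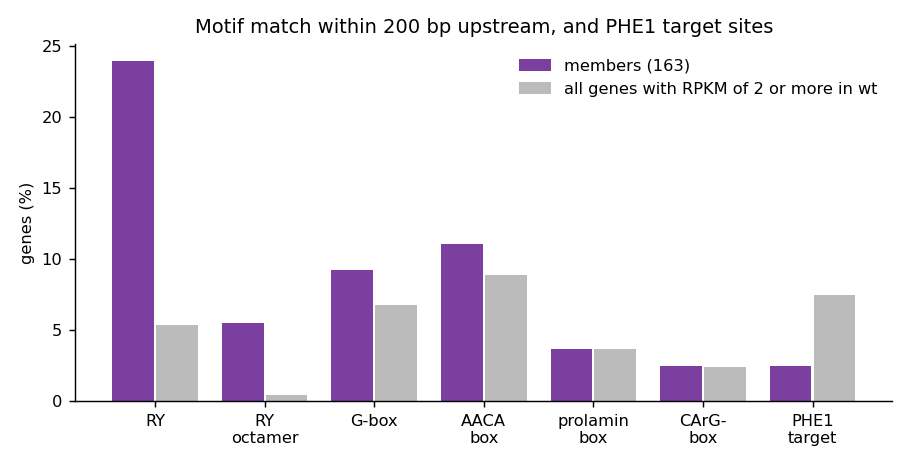
Share of genes (%) with each motif within 200 bp upstream of the annotated start, and with a PHE1 target site, for the 163 members (purple) and for all genes with at least 2 RPKM in both wt libraries (grey). The RY element matched in 23.9% of members and 5.37% of the other set, and PHE1 target sites were assigned to 2.45% and 7.48%.

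PHE1 target sites were assigned to few of the members. A target was a gene whose start was nearest to the centre of a region shared by the peaks of both ChIP replicates, from 1500 bp upstream to 500 bp downstream. Of 163 members, 4 were targets (2.45%), against 7.48% of the 15691 genes with at least 2 RPKM in wt and 6.07% of the whole table. The share was 8.59% of members when any shared region in the gene or 3 kb upstream counted, against 13.2% of the genes with at least 2 RPKM in wt. No test was made of these shares.

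The targets were *LCR16* and *LCR39*, which encode small secreted cysteine-rich proteins, *DTA2*, annotated as a downstream target of the MADS-box protein AGL15, and AT3G44830, a lecithin:cholesterol acyltransferase family gene. *LCR16* had a site at chr1:18299911-18300127, centred 157 bp upstream of its start, and another at chr1:18299396-18299634, centred 347 bp downstream and overlapping its coding sequence. The *DTA2* site, at chr2:18865708-18866085, spans the start. The *LCR39* site, at chr3:8267161-8268007, is centred 999 bp upstream and also overlaps an exon of the neighbouring gene AT3G23170. The AT3G44830 site, at chr3:16368388-16368922, is centred 235 bp upstream and reaches into its coding sequence.

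An exact CArG-box was present in the sites of *DTA2* and *LCR39*, and 11.5% of all 2510 shared regions hold one. The study found CArG-like motifs in most PHE1 binding sites, among them a form that lacks the terminal G bases. Those motifs were not searched here, so a site without an exact box may still hold one of them. The runs below give each box in capitals with 10 bases on either side, 5′ to 3′ on the strand of the gene. The *DTA2* box lies in its annotated exon, 64.5 bp past the start, and those of *LCR39* are intergenic, centred 811.5 and 882.5 bp before its start. The upstream site of *LCR16* has no exact CArG-box but holds the RY element in 3 overlapping matches, in capitals in the last run, which is the whole shared region.
DTA2, chr2:18865973-18866002, plus strand: cataggaataCCAAATATGGatgaccaaat
LCR39, chr3:8267382-8267411, minus strand: ataattagtaCCAAAATTGGttaccatcaa
LCR39, chr3:8267453-8267482, minus strand: actttagttaCCATATTTGGtctcaaatct
LCR16, chr1:18299911-18300127, minus strand: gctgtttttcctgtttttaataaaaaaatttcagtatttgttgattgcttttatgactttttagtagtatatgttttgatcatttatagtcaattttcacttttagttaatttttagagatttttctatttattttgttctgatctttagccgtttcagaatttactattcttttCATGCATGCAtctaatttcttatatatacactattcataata

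The low triploid RNA of the 4 target genes was fixed by the choice of members, and their levels are given as a description. *DTA2* was at 4.26 and 6.77 RPKM in *phe1 phe2 osd1*, 0.692 and 2.23 RPKM in *osd1* and 92.5 and 77.6 RPKM in wt seeds. *LCR39* was at 1.73 and 2.57 RPKM in *phe1 phe2 osd1*, 0.486 and 1.74 RPKM in *osd1* and 65.2 and 48.9 RPKM in wt seeds. Of these genes, *DTA2* had both *osd1* libraries below both *phe1 phe2 osd1* libraries and *LCR39* did not. AT3G44830 was at 0.0580 and 1.32 RPKM in *phe1 phe2 osd1*, 0 and 0.146 RPKM in *osd1* and 21.2 and 17.9 RPKM in wt seeds, and *LCR16* was at 0 and 0.782 RPKM, 0 and 0.623 RPKM, and 12.3 and 8.29 RPKM in the same order of crosses. Among the imprinted genes listed by the study, 1 of 94 maternally expressed genes with at least 2 RPKM in wt was a member, AT3G20450, and 0 of 97 paternally expressed genes were. With 1.04% of all such genes being members, neither count is a result. AT3G20450 was at 0.213 and 0.301 RPKM in *phe1 phe2 osd1*, 0 and 0.320 RPKM in *osd1* and 6.53 and 3.01 RPKM in wt seeds.

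The triploid libraries were low to different degrees. The median member was at 4.12% and 7.31% of its wt mean in the *phe1 phe2 osd1* libraries and at 1.33% and 3.38% in the *osd1* libraries. The first *osd1* library was strictly the lowest of all for 103 of 163 members (63.2%), against 18.7% of all genes tested. Part of that gap comes from the choice of members, which all but kept wt libraries from being lowest. Ties included, the wt libraries were lowest for 0 and 0 members but for 4765 and 3500 of the 20051 genes tested. The second *phe1 phe2 osd1* library was the highest of the triploid libraries for 118 members. Members listed at 0 numbered 23 and 8 in *phe1 phe2 osd1* and 40 and 21 in *osd1*. On the scale of log2(RPKM + 0.5), the mean of the 4 triploid libraries was below that of wt by a median of -3.68 over the members, and by between -2.15 and -6.99 for single members. The same median over all 15691 genes with at least 2 RPKM in wt was -0.05.

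**Figure D2:**
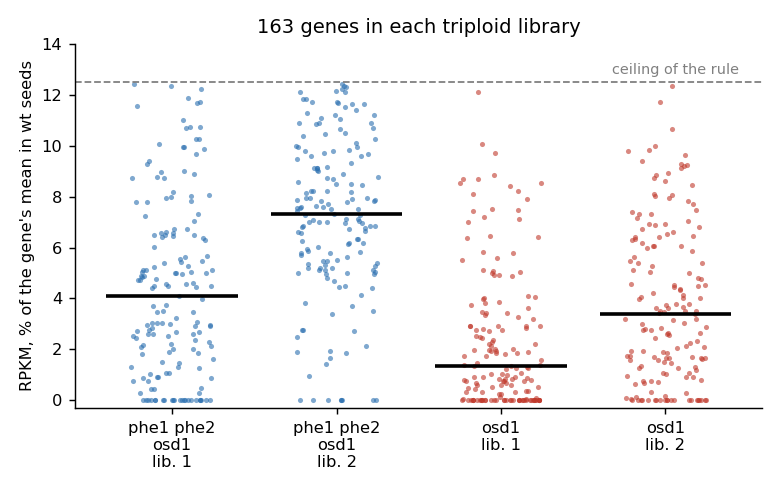
RPKM of each of the 163 members in each triploid library, as a percentage of that gene's mean in the 2 wt libraries, with each point a gene and the black bar the median. Medians were 4.12% and 7.31% in *phe1 phe2 osd1* and 1.33% and 3.38% in *osd1*, and the dashed line is the 12.5% ceiling that defined the group.

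The wt libraries were close for most members. They lay within 1.5 times of each other for 140 of 163 members, and the first was above the second for 127 (77.9%), against 53.0% of all genes with at least 2 RPKM in wt. For 135 members the lower wt library was itself at least 8 times every triploid library. The thinnest member rested on an estimated 6.94 reads in the first wt library, and it was the only member with under 10 in a wt library. Just inside the ceiling were *UGT76E2* (12.4% of wt in its highest triploid library), AT1G47540 (12.4%) and *UGT75B1* (12.4%), and just outside it were *MES11* (12.54%), *LBD42* (12.6%) and *CYP71B10* (12.6%). At the wt minimum, *TGA9* (2.00 RPKM in its lower wt library), AT5G38010 (2.12 RPKM) and AT3G23550 (2.12 RPKM) were just inside, and *MES9* (1.95 RPKM), *UMAMIT28* (1.87 RPKM) and AT2G23400 (1.78 RPKM) just outside.

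The storage protein and oil body genes were the best represented functional list. Of 23 genes in that list, 12 reached 2 RPKM in both wt libraries, and 8 of these were members, in a table where 1.04% of such genes were: the albumins *SESA1* to *SESA4*, the cruciferin *CRA1*, the oleosins *OLEO3* and AT3G01570, and the peroxiredoxin *PER1*. Of these 8, *SESA2*, *SESA3* and *SESA4* owed their place to the second wt library and are tandem copies, as described below. The summed level of the list was 59.9 and 115.8 RPKM in *phe1 phe2 osd1*, 28.8 and 70.6 RPKM in *osd1*, and 839 and 1146 RPKM in wt seeds.

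Oleosins coat the oil bodies of the embryo. *OLEO3* was at 29.0 and 51.5 RPKM in *phe1 phe2 osd1*, 15.1 and 34.3 RPKM in *osd1* and 474 and 404 RPKM in wt seeds. AT3G01570 was at 3.91 and 14.1 RPKM in *phe1 phe2 osd1*, 1.26 and 2.00 RPKM in *osd1* and 141 and 103 RPKM in wt seeds. Another annotated gene, AT3G01572, overlaps the window upstream of AT3G01570. *OLEO1*, *OLEO2* and *OLEO4* missed the ceiling but had all 4 triploid libraries below both wt libraries, as did 32.9% of all genes with at least 2 RPKM in wt. *OLEO1* was at 4.98 and 11.1 RPKM in *phe1 phe2 osd1*, 0.877 and 5.77 RPKM in *osd1* and 31.7 and 58.4 RPKM in wt seeds.

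Storage proteins were low in wt seeds at this age, and their wt libraries differed. *CRA1*, which encodes a 12S globulin, was at 1.26 and 2.17 RPKM in *phe1 phe2 osd1*, 0.349 and 0.812 RPKM in *osd1* and 29.2 and 54.5 RPKM in wt seeds. *SESA1* was at 3.54 and 5.84 RPKM in *phe1 phe2 osd1*, 0.323 and 2.90 RPKM in *osd1* and 46.9 and 60.7 RPKM in wt seeds. Both were higher in the second wt library than in the first.

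The other albumins owed their place to the second wt library. *SESA2* was at 0 and 2.31 RPKM in *phe1 phe2 osd1*, at 0 in both *osd1* libraries and at 3.09 and 101 RPKM in wt seeds. *SESA3* was at 0.302 and 1.28 RPKM in *phe1 phe2 osd1*, 0 and 0.454 RPKM in *osd1* and 5.19 and 116 RPKM in wt seeds. *SESA4* was at 1.01 and 3.02 RPKM in *phe1 phe2 osd1*, 1.32 and 2.54 RPKM in *osd1* and 4.46 and 65.0 RPKM in wt seeds. The second wt library was 32.7, 22.3 and 14.6 times the first for these genes, the only members more than 10 times apart, and the first wt library of *SESA4* was only 1.47 times its highest triploid library. The albumin genes are tandem copies of similar sequence. The mapping setting given by the study (-g 1 in TopHat) kept no more than a single alignment per read. The split between copies of reads that match several is therefore uncertain.

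The same gap between the wt libraries was seen in storage genes that missed the wt minimum. *CRU3* was at 0 in all 4 triploid libraries and at 0.614 and 35.8 RPKM in wt seeds, *CRU2* at 0 in all 4 and at 0.638 and 18.3 RPKM in wt, and *SESA5* at 0.296 and 5.39 RPKM in wt with at most 0.0660 RPKM in a triploid library. *PAP85* and *ATS3* had the gap as well, but at least 1 triploid library of each was above the first wt library. *PAP85* was at 0.175 and 0 RPKM in *phe1 phe2 osd1*, 1.68 and 0 RPKM in *osd1* and 0.259 and 4.71 RPKM in wt seeds. *ATS3* was at 0.798 and 0.754 RPKM in *phe1 phe2 osd1*, 0.559 and 0.629 RPKM in *osd1* and 0.482 and 6.46 RPKM in wt seeds, with all 4 triploid libraries above the first wt library. *PER1*, a peroxiredoxin of maturing seeds, was at 0 and 0.0555 RPKM in *phe1 phe2 osd1*, at 0 in both *osd1* libraries and at 2.86 and 3.16 RPKM in wt seeds. *ECP63*, *EM1* and *GEA6* of the late embryogenesis genes were not members, and *EM1* was at 0 in all 6 libraries.

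Among 12 regulators of seed filling, all of which reached 2 RPKM in wt, *FUS3* and *DPBF2* were members. *FUS3* was at 3.95 and 4.36 RPKM in *phe1 phe2 osd1*, 1.81 and 3.12 RPKM in *osd1* and 38.4 and 35.2 RPKM in wt seeds. *DPBF2* was at 1.55 and 2.27 RPKM in *phe1 phe2 osd1*, 0.185 and 0.944 RPKM in *osd1* and 23.0 and 16.8 RPKM in wt seeds. Both had close wt libraries, and their distance from the triploid libraries was fixed by the choice of members. The list summed to 237 and 206 RPKM in *phe1 phe2 osd1*, 140 and 245 RPKM in *osd1* and 722 and 677 RPKM in wt seeds.

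The remaining regulators were spread between near loss and no fall. *NF-YB6*, a LEC1-type subunit, had 3.99 and 11.2 RPKM in *phe1 phe2 osd1*, 1.49 and 2.99 RPKM in *osd1* and 85.9 and 87.8 RPKM in wt seeds, and only the second *phe1 phe2 osd1* library kept it out of the group. *WRI1*, which drives oil synthesis genes, had 37.3 and 38.3 RPKM in *phe1 phe2 osd1*, 20.6 and 40.6 RPKM in *osd1* and 200.3 and 180 RPKM in wt seeds. *ABI3* had 4.77 and 7.48 RPKM, 6.39 and 4.17 RPKM, and 39.6 and 35.0 RPKM in the same order of crosses. *LEC1* differed less, with 99.8 and 74.4 RPKM in *phe1 phe2 osd1*, 47.2 and 110.2 RPKM in *osd1* and 195 and 190 RPKM in wt seeds. *BZIP53* was higher in all 4 triploid libraries, at 34.1 to 40.1 RPKM, than in wt, at 26.7 and 27.1 RPKM.

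**Figure D3:**
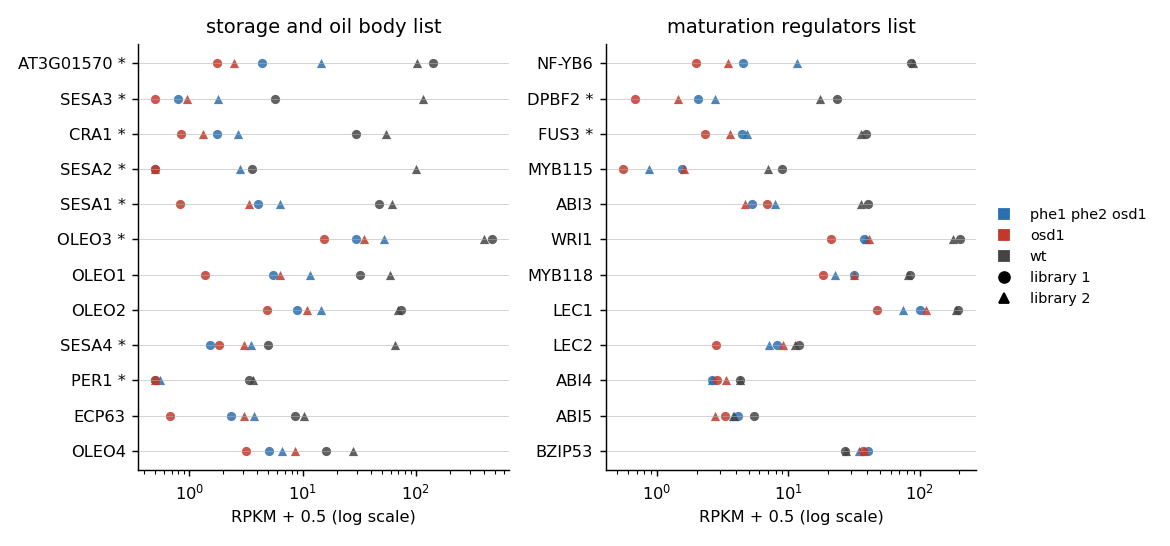
Level of each gene of the storage and oil body list (left) and of the maturation regulators list (right) with at least 2 RPKM in both wt libraries, as RPKM + 0.5 on a log axis, with 1 point per library and members marked by an asterisk. The wt points of *SESA2*, *SESA3* and *SESA4* are 14.6 to 32.7 times apart, while *FUS3* and *DPBF2* have close wt points that lie above all triploid points.

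Genes of lipid metabolism were also members. *KCS18*, also known as *FAE1*, encodes the condensing enzyme that lengthens the fatty acids of seed oil. It was at 0.495 and 7.52 RPKM in *phe1 phe2 osd1*, at 0 in both *osd1* libraries and at 123 and 92.2 RPKM in wt seeds. The second *phe1 phe2 osd1* library stood apart from the other 3 triploid libraries here. The stearoyl-ACP desaturase family had 2 members of 6 genes with at least 2 RPKM in wt, *FTM1* and AT5G16230, where 1.04% of all such genes were members. *GLIP6*, a GDSL lipase, was at 1.33 and 5.88 RPKM in *phe1 phe2 osd1*, 0.418 and 0.481 RPKM in *osd1* and 205 and 143 RPKM in wt seeds.

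The most abundant member was AT5G38170, which encodes a small protein of the lipid-transfer and 2S albumin superfamily. It was at 612 and 868 RPKM in *phe1 phe2 osd1*, 152 and 668 RPKM in *osd1* and 7706 and 7235 RPKM in wt seeds. *ENODL3*, an early nodulin-like protein, was at 210.3 and 304 RPKM in *phe1 phe2 osd1*, 36.6 and 157 RPKM in *osd1* and 2659 and 2548 RPKM in wt seeds. Both remained readily detected in all 4 triploid libraries. Relatives of AT5G38170 in the group were AT5G55410 and AT4G22630, and AT4G36700, a cupin like the globulins, was at 10.9 and 36.6 RPKM in *phe1 phe2 osd1*, 1.60 and 6.44 RPKM in *osd1* and 503 and 448 RPKM in wt seeds.

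Several members with high wt levels act on the cell wall. *RGP3*, whose family interconverts forms of UDP-arabinose, was at 46.6 and 71.0 RPKM in *phe1 phe2 osd1*, 6.95 and 21.2 RPKM in *osd1* and 951 and 865 RPKM in wt seeds. *RRA1*, which belongs to the arabinosyltransferases that modify extensins, was at 10.7 and 16.3 RPKM in *phe1 phe2 osd1*, 1.42 and 4.63 RPKM in *osd1* and 268 and 208 RPKM in wt seeds. In both, the *phe1 phe2 osd1* libraries were above the *osd1* libraries, as for 50.9% of members and 12.6% of all genes tested.

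Extensins are proline-rich wall proteins that carry such arabinose chains. The extensin-like gene AT5G59170 was at 9.95 and 24.0 RPKM in *phe1 phe2 osd1*, 1.40 and 4.15 RPKM in *osd1* and 413 and 370 RPKM in wt seeds. *EPR1*, an extensin-like gene of the endosperm and the only member among 12 endosperm genes with at least 2 RPKM in wt, was at 10.9 and 20.7 RPKM in *phe1 phe2 osd1*, 23.6 and 2.54 RPKM in *osd1* and 467 and 341 RPKM in wt seeds. *EPR1* went against the usual order, since its first *osd1* library was the highest of the 4. The endosperm list had no common direction. Of its 12 genes, 7 had all 4 triploid libraries below both wt libraries, as did 32.9% of all genes with at least 2 RPKM in wt, and 5 had all 4 above. The glycosyl hydrolases *GH9C1* and *GH9B8*, 4 pectin lyase-like genes of 32 with at least 2 RPKM in wt, *PME3* and *EXPB1* were members as well. Across all genes with at least 2 RPKM in wt the share of members was 1.04%.

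A gibberellin enzyme and a pair of proteases were among the highest members. By product keywords, proteases or their inhibitors were 1.23% of members and 1.78% of genes with at least 2 RPKM in wt. *GA20OX3*, which makes precursors of active gibberellin, was at 13.8 and 23.3 RPKM in *phe1 phe2 osd1*, 1.49 and 6.70 RPKM in *osd1* and 495 and 418 RPKM in wt seeds. The subtilase *SBTI1.1* was at 11.6 and 23.5 RPKM in *phe1 phe2 osd1*, 1.66 and 3.38 RPKM in *osd1* and 486 and 382 RPKM in wt seeds. The aspartyl protease AT4G04460 was at 27.4 and 30.2 RPKM in *phe1 phe2 osd1*, 14.7 and 14.8 RPKM in *osd1* and 452 and 394 RPKM in wt seeds. Each had the *osd1* libraries below the *phe1 phe2 osd1* libraries, again the pattern of 12.6% of all genes tested. *CKX3*, which degrades cytokinin, *RR16* of cytokinin signalling, the auxin response factor *ARF11*, the DELLA gene *RGL3* and the precursor of the peptide hormone phytosulfokine, *PSK1*, were further members.

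**Figure D4:**
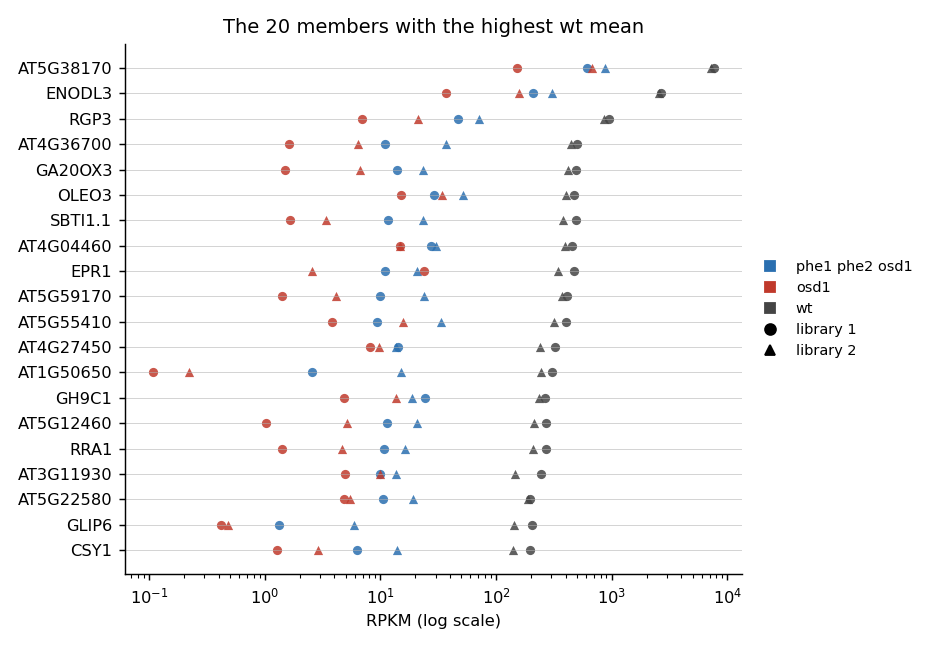
RPKM (log axis) of the 20 members with the highest wt mean, with 1 point per library coloured by cross. In 1 gene, *EPR1*, the first *osd1* library (23.6 RPKM) lies above both *phe1 phe2 osd1* libraries, and in each of the 20 the wt points lie to the right of all others, which the choice of members all but fixed.

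The rest of the 20 members highest in wt have various roles. *CSY1*, annotated as citrate synthase 1, was at 6.24 and 13.9 RPKM in *phe1 phe2 osd1*, 1.26 and 2.91 RPKM in *osd1* and 197 and 141 RPKM in wt seeds. AT5G12460, annotated as a fringe-like protein, was at 11.5 and 20.5 RPKM in *phe1 phe2 osd1*, 1.03 and 5.18 RPKM in *osd1* and 270.0 and 212 RPKM in wt seeds. AT5G22580, of the stress-responsive A/B barrel family, was at 10.4 and 19.2 RPKM in *phe1 phe2 osd1*, 4.83 and 5.45 RPKM in *osd1* and 197 and 191 RPKM in wt seeds. These, too, had both *osd1* libraries below both *phe1 phe2 osd1* libraries, as did 12.6% of all genes tested.

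AT4G27450, annotated as an aluminum-induced protein, had close triploid libraries, at 14.2 and 13.6 RPKM in *phe1 phe2 osd1*, 8.20 and 9.67 RPKM in *osd1* and 326 and 239 RPKM in wt seeds. AT3G11930, of the adenine nucleotide alpha hydrolase-like family, was at 9.89 and 13.7 RPKM in *phe1 phe2 osd1*, 4.93 and 9.83 RPKM in *osd1* and 244 and 147 RPKM in wt seeds. *GH9C1* was at 24.3 and 18.7 RPKM in *phe1 phe2 osd1*, 4.80 and 13.5 RPKM in *osd1* and 267 and 236 RPKM in wt seeds. The highest triploid library of these genes was at 5.02% of the wt mean for AT4G27450, 7.01% for AT3G11930 and 9.67% for *GH9C1*.

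The largest falls were in AT1G50650, of the Stig1 family of small cysteine-rich proteins. It was at 2.54 and 15.0 RPKM in *phe1 phe2 osd1*, 0.108 and 0.222 RPKM in *osd1* and 302 and 243 RPKM in wt seeds, and its log2 difference, triploid minus wt, was -6.99. Next came *GLIP6* (-6.58), *KCS18* (-6.49), AT1G28700 (-6.22), AT5G25330 (-6.19), AT1G10880 (-5.98), *SBTI1.1* (-5.94), *CYP76G1* (-5.93), AT5G59170 (-5.83) and *GA20OX3* (-5.77). *KCS18* was at 0 in both *osd1* libraries and AT5G25330 at 0 in the first, so the size of their falls depends on the 0.5 RPKM added before the log. AT1G28700 is annotated as a nucleotide-diphospho-sugar transferase, and AT5G25330 and AT1G10880 as glycosyltransferases of the Core-2/I-branching type.

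By keywords in the annotated product, transcription factors were 4.91% of members and 4.86% of genes with at least 2 RPKM in wt. The keywords missed *PEI1*, *DOF4.7* and *GRF3* among the members and may miss genes of the wider set. These shares are therefore no count of all transcription factors. Members found by keyword included *MYB56*, at 6.83 and 11.7 RPKM in *phe1 phe2 osd1*, 1.01 and 5.55 RPKM in *osd1* and 139 and 129 RPKM in wt seeds. *PEI1*, a zinc finger gene needed for embryo growth, was at 2.01 and 7.55 RPKM in *phe1 phe2 osd1*, 1.04 and 1.51 RPKM in *osd1* and 109 and 92.0 RPKM in wt seeds. *DOF4.7*, *DOF6*, *NAC075*, *HB23*, *TGA9*, *KNATM*, *NF-YC12* and the growth-regulating factors *GRF3* and *GRF6* were also members.

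Transporters that move sugars and other metabolites were another set. *SWEET11*, a sucrose exporter that helps to feed the embryo, was at 3.94 and 12.1 RPKM in *phe1 phe2 osd1*, 3.73 and 9.72 RPKM in *osd1* and 161 and 104 RPKM in wt seeds, and here the 2 triploid crosses overlapped. The MtN21 family had 3 members of 21 genes with at least 2 RPKM in wt, *UMAMIT6*, *UMAMIT20* and *UMAMIT27*, and the MATE efflux family 4 of 27. The share over all such genes was 1.04%, and these families were picked after their values were seen. The amino acid transporter *CAT5* was also a member.

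Genes listed at 0 in all 4 triploid libraries numbered 5, and all were low in wt: AT1G23510 (4.74 and 4.16 RPKM in wt), *UMAMIT27* (3.55 and 2.49 RPKM), *LCR42* (3.14 and 2.66 RPKM), AT1G33820 (2.68 and 3.09 RPKM) and AT5G38010 (2.17 and 2.12 RPKM). No fold change is given for them. At these wt levels the distance from 0 is small, and loss here was not distinguishable from a low remaining level.

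Some members were next to each other in the genome. The 4 *SESA* genes lie in a row on chromosome 4 between positions 13607329 and 13614283. On chromosome 5, *PEI1*, *GRP14* and *GRP18* are consecutive, and the glycine-rich proteins are 1069 bp apart. *LCR42* and *LCR39* are neighbours on chromosome 3, with 1158 bp between them, and AT1G23510 and AT1G23520 on chromosome 1, with 628 bp. AT1G23510 and AT1G23520 belong to the OBP32pep and DUF220 family. Of that family, 4 of 5 genes with at least 2 RPKM in wt were members, against 1.04% of all such genes. Members of 1 cluster share sequence or position and are not independent observations.

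Few markers of other tissues could be members, since 2 of 13 pollen, 1 of 6 anther, 1 of 9 vascular, 6 of 13 floral organ and 6 of 19 stress genes reached 2 RPKM in both wt libraries. Among these, the pollen gene *RALFL4*, a signal peptide of pollen tubes, was the only member. The pollen list of 13 genes summed to 2.30 and 1.55 RPKM in *phe1 phe2 osd1*, 3.07 and 1.48 RPKM in *osd1* and 7.69 and 5.54 RPKM in wt seeds, and 3 of its genes were at 0 in all 6 libraries. Members numbered 0 of 25 seed coat mucilage, 0 of 17 seed coat flavonoid, 0 of 14 cuticle, 0 of 24 photosynthesis, 0 of 12 embryo patterning and 0 of 6 housekeeping genes with at least 2 RPKM in wt. With 1.04% of all such genes being members, a 0 in lists of this size is not a result. The seed coat flavonoid genes, which are maternal, summed to 5573 and 5859 RPKM in *phe1 phe2 osd1*, 6384 and 5979 RPKM in *osd1* and 2735 and 3445 RPKM in wt seeds, with all 4 triploid sums above both wt sums. The mucilage genes, of the same maternal tissue, had all 4 triploid sums below both wt sums, and summed to 2816 and 3250 RPKM in *phe1 phe2 osd1*, 1977 and 3736 RPKM in *osd1* and 4036 and 4349 RPKM in wt seeds.

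Other lists are given by their sums. The embryo patterning list summed to 224 and 226 RPKM in *phe1 phe2 osd1*, 249 and 220 RPKM in *osd1* and 281 and 277 RPKM in wt seeds, and the median of its 12 genes with at least 2 RPKM in wt was -0.90 on the log2 scale, triploid minus wt. The photosynthesis list summed to 6522 and 5610 RPKM, 7803 and 5699 RPKM, and 11199 and 11498 RPKM in the same order of crosses, with a median of -0.73, where the median over all genes with at least 2 RPKM in wt was -0.05. The stress list, with *HSP70* and *ADH1* in it, summed to 55.3 and 82.7 RPKM in *phe1 phe2 osd1*, 49.3 and 91.8 RPKM in *osd1* and 210.4 and 146 RPKM in wt seeds. The part of tissue make-up in the members' falls was not tested.

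The annotation names particular tissues or stages for a part of the genes. Any note of this kind was present for 44.8% of members and 55.3% of genes with at least 2 RPKM in wt, notes that only count tissues included. Notes naming tissues or stages were present for 43 members (26.4%) and for 7.14% of genes with at least 2 RPKM in wt. Of the named notes, 37.2% of those of members and 30.9% of those of the wider set mention seed, embryo or endosperm, 65.1% and 44.9% mention flower parts, 23.3% and 25.98% pollen or the male gametophyte, and 16.3% and 11.5% the root.

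Levels in *phe1 phe2 osd1* were above those in *osd1* for many members, in a comparison the choice of members did not use to separate groups, since the ceiling applied to all 4 libraries alike. Both *phe1 phe2 osd1* libraries were above both *osd1* libraries for 83 of 163 members (50.9%), against 12.6% of the 20051 genes tested. The reverse was seen for 4 members (2.45%), against 10.1%. Without the first *osd1* library, which stood apart in mucilage genes, both *phe1 phe2 osd1* libraries were above the second *osd1* library for 90 members, against 32.5% of all genes tested, and the median difference was 0.34. With all libraries, the median difference on the scale of log2(RPKM + 0.5), *phe1 phe2 osd1* minus *osd1*, was 0.53 over members, with quartiles of 0.25 and 1.11, against 0.01 over all genes tested, with quartiles of -0.11 and 0.13.

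**Figure D5:**
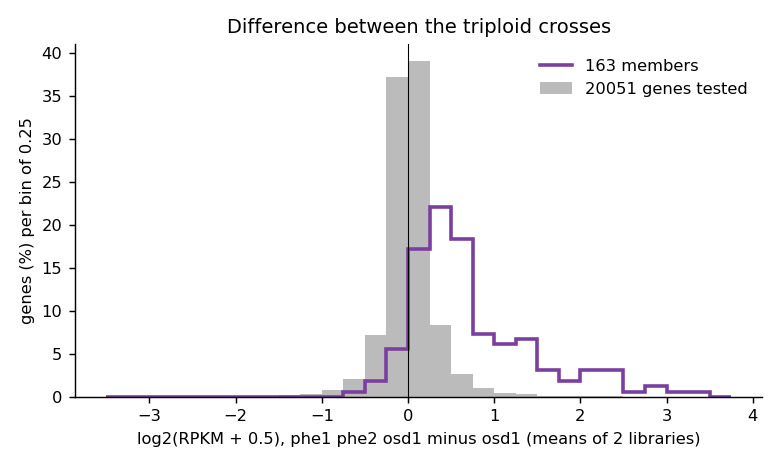
Distribution of the log2(RPKM + 0.5) difference between the means of the *phe1 phe2 osd1* and *osd1* libraries, for the 163 members (purple line) and all 20051 genes tested (grey), as the percentage of genes per bin. The medians were 0.53 and 0.01.

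No member passed the test for this difference. In limma's moderated test with Benjamini-Hochberg adjustment, 0 members and 0% of all genes were called at an adjusted p under 0.05, and the smallest adjusted p of a member was 0.400, for *CYP76G1*. That cytochrome P450 gene was at 2.81 and 4.80 RPKM in *phe1 phe2 osd1* and 0.0665 and 0.136 RPKM in *osd1*, a log2 difference of 2.80 (SE 0.27). At an unadjusted p under 0.05, 47 members were higher and 0 lower in *phe1 phe2 osd1*, against 1.75% and 1.02% of all genes tested. By the rank product at its unadjusted threshold of 0.05, 98 members were higher and 8 lower, against 4.36% and 4.07%. Every member passed the filter for testing through wt, where it was chosen to be high. At least 1 triploid library was at 0 for 46 members. Genes of the same libraries are not independent of one another, so the unadjusted counts of both methods are a description.

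The spread between replicates was of the same size as the difference. The second *osd1* library and the first *phe1 phe2 osd1* library had close medians, 3.38% and 4.12% of wt, while the 2 libraries within each cross were further apart. Without the second *osd1* library, 8 members were called, against 0.248% of the 20123 genes tested, all higher in *phe1 phe2 osd1*: *DOF4.7*, *DOF6*, *ENODL3*, *RGP3*, *GH9C1*, *GA20OX3*, *RRA1* and AT5G12460, with log2 differences of 2.04 to 3.38 and adjusted p of 0.0188 to 0.0447 in limma. That fit takes the single *osd1* library left, the one low in mucilage genes, to vary like those of the other crosses. Without that library in place of the second, 0 members were called.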

How the data were processed

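RNA-seq of seeds from 3 crosses (2 libraries each) and PHE1–GFP ChIP-seq peak lists (2 replicates) were used. The deposited RPKM values were computed by the authors with GFOLD after mapping with TopHat2 2.1.0 to TAIR10 masked for rRNA genes. In RPKM the mapped reads of a library set its scale, no further scaling is stated, and no counts were used, so depth was only estimated (16.2 to 18.1 M reads per library, with 36.2 to 39.6% of low values at a whole number of reads within 0.05, where chance gives 10%). The peak lists, which hold only positions with no score, were deposited by the authors after mapping with Bowtie 1.2.2 and calling with MACS2 2.1.1 in each replicate against its input. The submitters' processing notes give these versions. All 6 sample columns were used, and 0 other sample columns were left out.

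Members were chosen by their RPKM as stated at the opening. The members, the gene lists and the motifs were chosen with earlier results of these data known, so no list is independent support. Genes with a mean of at least 0.5 RPKM in at least 1 cross (20051) were tested for *phe1 phe2 osd1* vs *osd1* with limma 3.58.1 in R 4.3.3 (eBayes with trend, log2(RPKM + 0.5), all 6 libraries, Benjamini-Hochberg over all tested genes, two-sided). This log scale understates differences of low genes. With 2 libraries against 2, the smallest exact permutation p of 1 gene is 0.3333, and no such test was made. The scripts were tested on simulated data. There the rank product made 1698 false calls at an unadjusted p under 0.05, and limma made 3 at an adjusted p under 0.05. These thresholds are not alike, so the counts do not rank the methods. The unadjusted counts of the rank product are a description. The rank product followed the study's methods, was coded anew with zeros at 0.0001 and 100 permutations of each library, and was an alternative.

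Shared regions overlapped by at least 1 bp. Gene models, names and sequences came from RefSeq on TAIR10.1, in which all 163 members and 26719 of 27206 table IDs were found. The lists cover storage and oil body, maturation regulators, embryo patterning, cuticle, photosynthesis, seed coat, endosperm, pollen, anther, floral organ, vascular, stress and housekeeping genes. Genes were named by a rule: the 20 highest in wt, the 10 with the largest fall, members of a list, PHE1 targets, those at 0 in all triploid libraries, those nearest to a threshold and neighbours in the genome. Other genes named (transporters, further regulators, wall and hormone genes) and the families were chosen after their values were seen. Alternatives covered the thresholds, pseudocount, filter, scaling, test, replicate number as a block, peak sets, motif window and each library left out. Fold differences involving genes listed at 0 are not given. Whether counting used strand is not given in the sources used here. Replicates are called biological replicates by the study. The histone and input chromatin of *osd1* endosperm was not analysed here.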

Additional observations from a re-analysis of the deposited data

How the results depend on the processing

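The number of members was 163 with the thresholds as given. It became 465 with a ceiling of 25% of wt and 51 with a ceiling of 6.25%, and stayed between 122 and 185 for a wt minimum of 5 or 1 RPKM, 156 after rescaling the libraries and 135 where the ceiling was set by the lower wt library. Leaving out each library in turn gave 160 to 216 members, and without the first wt library 141 of the 163 were kept. With the ceiling at 25%, 22 genes of the fixed lists met it, against 12. The median difference of members, *phe1 phe2 osd1* minus *osd1*, was 0.95 with a pseudocount of 0.1, 0.36 with a pseudocount of 1, and 0.29 to 0.76 without each triploid library, so its size depends on the pseudocount while its direction did not change in these settings. Members called in that contrast numbered 0 in limma under every alternative but leaving out the second *osd1* library, which gave 8 (range 0 to 8), and 106 by the rank product at its unadjusted p. Both *phe1 phe2 osd1* libraries were above both *osd1* libraries for 83 members, and for 89 to 134 without 1 triploid library, 134 being without the first *phe1 phe2 osd1* library, where fewer pairs must agree in order. PHE1 targets were 2 members with peaks wider than the median, 14 with any shared region in the gene or 3 kb upstream and 4 to 6 otherwise. CATGCA was found in 47 members within 300 bp and in 64 (39.3%, against 15.1% of genes with at least 2 RPKM in wt) within 500 bp. The motif windows and the lower-wt ceiling were chosen after seeing the data. The log2 differences of the 20 highest members, triploid minus wt, moved by less than the spread of replicates in all 60 recomputed values. Only the pseudocount and the scaling were varied there. These carry little weight in genes at 169 RPKM or more in wt, and low members were not covered.

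With the replicate number as a block, 0 members were called. The numbers share nothing known, and deviations of same-numbered libraries correlated at -0.00, -0.01 and 0.17, so the samples were not treated as paired.

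Members near 2 RPKM rest on few reads, and their remaining level in triploid seeds could not be resolved. Peak lists without heights give no measure of how strong a site is.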
